A study of Homo sapiens with 11 samples.

Results

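The response of HEK293T cells to thapsigargin was measured by RNA sequencing as the Tg libraries against the vehicle libraries. HEK293T is an established human line of embryonic kidney origin, and its cells were wild type per the labels. The 3 numbered Tg columns of the count table (500 nM, 6 h) were set against its 3 vehicle columns (0.1% DMSO, 6 h). These are 6 of the 33 columns and 2 of the 11 labelled samples of the series. The other 27 columns hold cells treated for 6 h with the compounds AA147 (10 µM) or AA132 (0.1, 0.3, 1, 3, 6, 10, 15 or 30 µM), which the series title calls regulators of proteostasis in the endoplasmic reticulum (ER). Of these, AA132 at 30 µM served here as a second treatment for direct comparison. Separate cultures are not stated for the 3 columns of a condition. The p-values thus rest on a spread between numbered columns, estimated over all 11 conditions together. This spread may be technical.

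Thapsigargin blocks the SERCA calcium pumps and empties the calcium store of the ER, where many chaperones need calcium to fold new proteins. Misfolded proteins then activate the unfolded protein response through 3 sensors of the ER membrane. ATF6 is cut to release a transcription factor, IRE1 splices the XBP1 mRNA and can cleave other mRNAs at the ER, and PERK phosphorylates eIF2alpha, which lowers translation in general but favours that of ATF4 and through it CHOP (DDIT3). ATF6 and spliced XBP1 are known to act through the ER stress elements and the UPR element of promoters, and ATF4 with CHOP through C/EBP-ATF elements.

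The 6 libraries held 36607985 to 37958306 counts each. The line markers VIM, KRT8, KRT18, NEFL, NEFM and LIN28B were at 10.4 CPM or more in each of the 6 libraries, NES ran from 3.02 to 12.3 CPM and PAX2 reached at most 1.03 CPM (CPM, the usual depth-scaled count, here and throughout on libraries scaled by TMM). Among markers of other cell types, PTPRC had no count, ALB, CDH5, KRT5 and COL3A1 reached at most 0.57 CPM, and CD68 ran from 9.55 to 12.9 CPM. Vehicle library 1 stood apart from the other vehicle libraries. Chi-square over genes, divided by its degrees of freedom, was 59.4 and 46.2 between it and vehicle libraries 2 and 3, 7.47 between those 2, and 4.77 to 7.56 between Tg libraries, where counting error alone gives about 1. The median coefficient of variation over the 11458 genes with at least 5 CPM in either condition was 11.7% over the 3 vehicle libraries, 4.69% over vehicle libraries 2 and 3, and 4.46% over the Tg libraries. Some AA132 libraries also stood apart within their dose. HMOX1 was at 39.8, 11.5 and 12.1 CPM in columns 1, 2 and 3 of 1 µM, at 49.3, 43.9 and 14.2 CPM in those of 3 µM, and at 70.7, 126 and 118 CPM in those of 10 µM. These libraries entered the fit only through the estimate of spread and the scaling, and 5549 genes were called without the 3 doses, against 5551 with them.

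Tg changed a large share of the transcriptome, and the largest changes were rises. Of 17793 genes tested, 5551 (31.2%) were called at an adjusted p under 0.05 in edgeR's quasi-likelihood test. These were 2875 genes higher (16.2%) and 2676 lower (15%), with a median change of 1.37-fold in either direction. At more than 2-fold, 574 genes were called higher and 222 lower. At more than 4-fold the counts were 154 and 27, and at more than 8-fold 62 and 8. The median log2 fold change of all genes tested was 0.005. With upper quartile scaling in place of TMM scaling, 2307 of 5735 called genes were higher, so the near-even split between higher and lower rests on the scaling. With only the 6 Tg and vehicle libraries in the fit, 3073 genes were called. Without vehicle library 1 the count was 5148, of which 4221 were also called with it, 76.0% of one set and 82.0% of the other. The 3 Tg and the 3 vehicle libraries did not overlap in 6803 genes (38.2%).

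**Figure D1:**
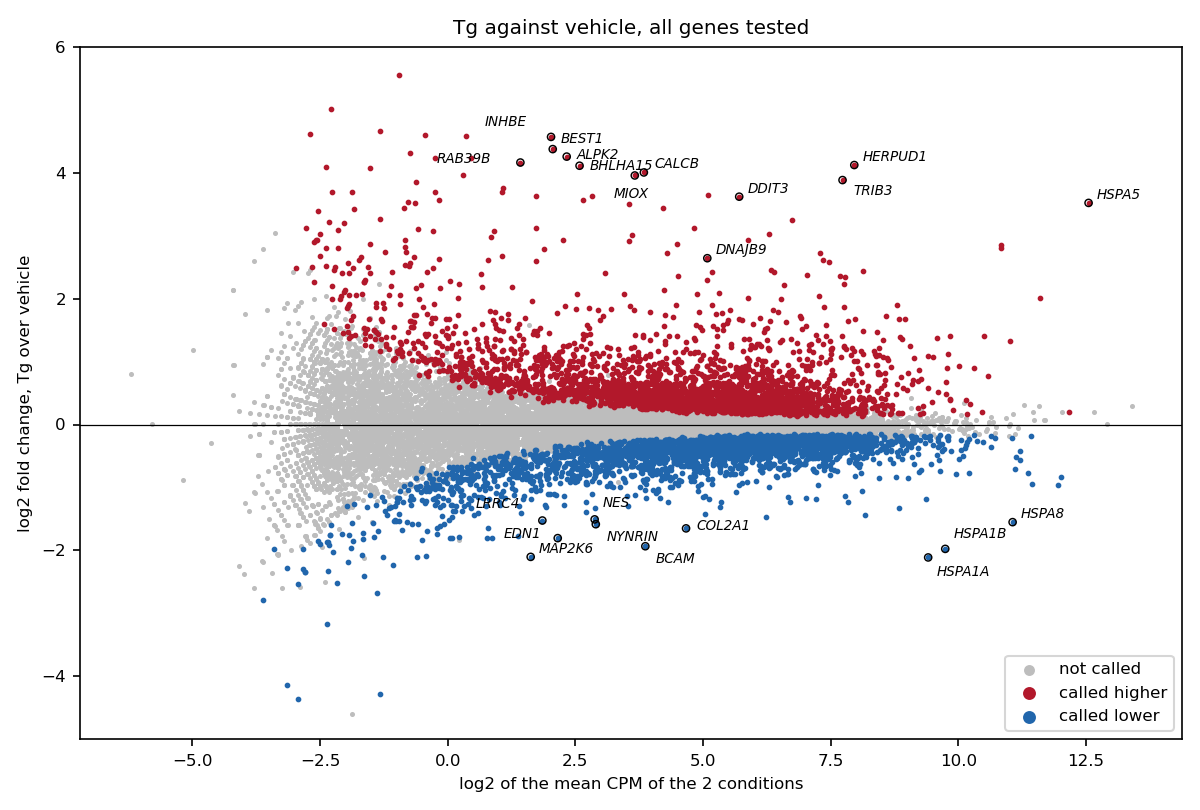
Log2 fold change of Tg over vehicle (vertical axis) against the log2 of the mean CPM of both conditions (horizontal axis) for the genes tested, with 14 genes beyond the vertical axis and 3 genes at 0 in both conditions not drawn. Red points were called higher, blue points lower and grey points not called. Circles mark the 3 response markers and the genes with the largest changes, except KLHDC7B, which lies beyond the vertical axis. The points above 4-fold outnumber those below it, and HSPA5 is both among the largest rises and at the right end of the axis.

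The 3 markers of ER stress given for this comparison all rose without overlap between groups. HSPA5 (chr9:125234853-125241382 on GRCh38, from the GENCODE 44 annotation like all gene positions here) encodes BiP, the HSP70 chaperone of the ER lumen. It was at 1025, 973 and 881 CPM in vehicle libraries 1, 2 and 3 and at 10969, 10778 and 11322 CPM in Tg libraries 1, 2 and 3. HSPA5 took 0.0892% to 0.101% of counts in vehicle and 1.05% to 1.10% under Tg. DDIT3 (chr12:57516588-57521737), the transcription factor CHOP, was at 8.396, 8.28 and 6.89 CPM in vehicle and 89.5, 103 and 97.4 CPM under Tg. DNAJB9 (chr7:108569867-108574850), the ER co-chaperone ERdj4 and a target of spliced XBP1, was at 9.34, 9.34 and 9.39 CPM in vehicle and 60.5, 56.7 and 58.1 CPM under Tg. Each Tg value was several times the highest vehicle value of the same gene. On the log2 scale the fold changes were 3.52 (SE 0.17, edgeR adjusted p = 1.97e-17), 3.62 (SE 0.18, adjusted p = 3.52e-17) and 2.64 (SE 0.09, adjusted p = 1.6e-21). Across the 27 libraries of AA147 and AA132, HSPA5 ran from 948 to 2923 CPM, DDIT3 from 6.57 to 23.4 CPM and DNAJB9 from 9.48 to 15.8 CPM, so no library of the other treatments reached the Tg level of any of the 3.

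**Figure D2:**
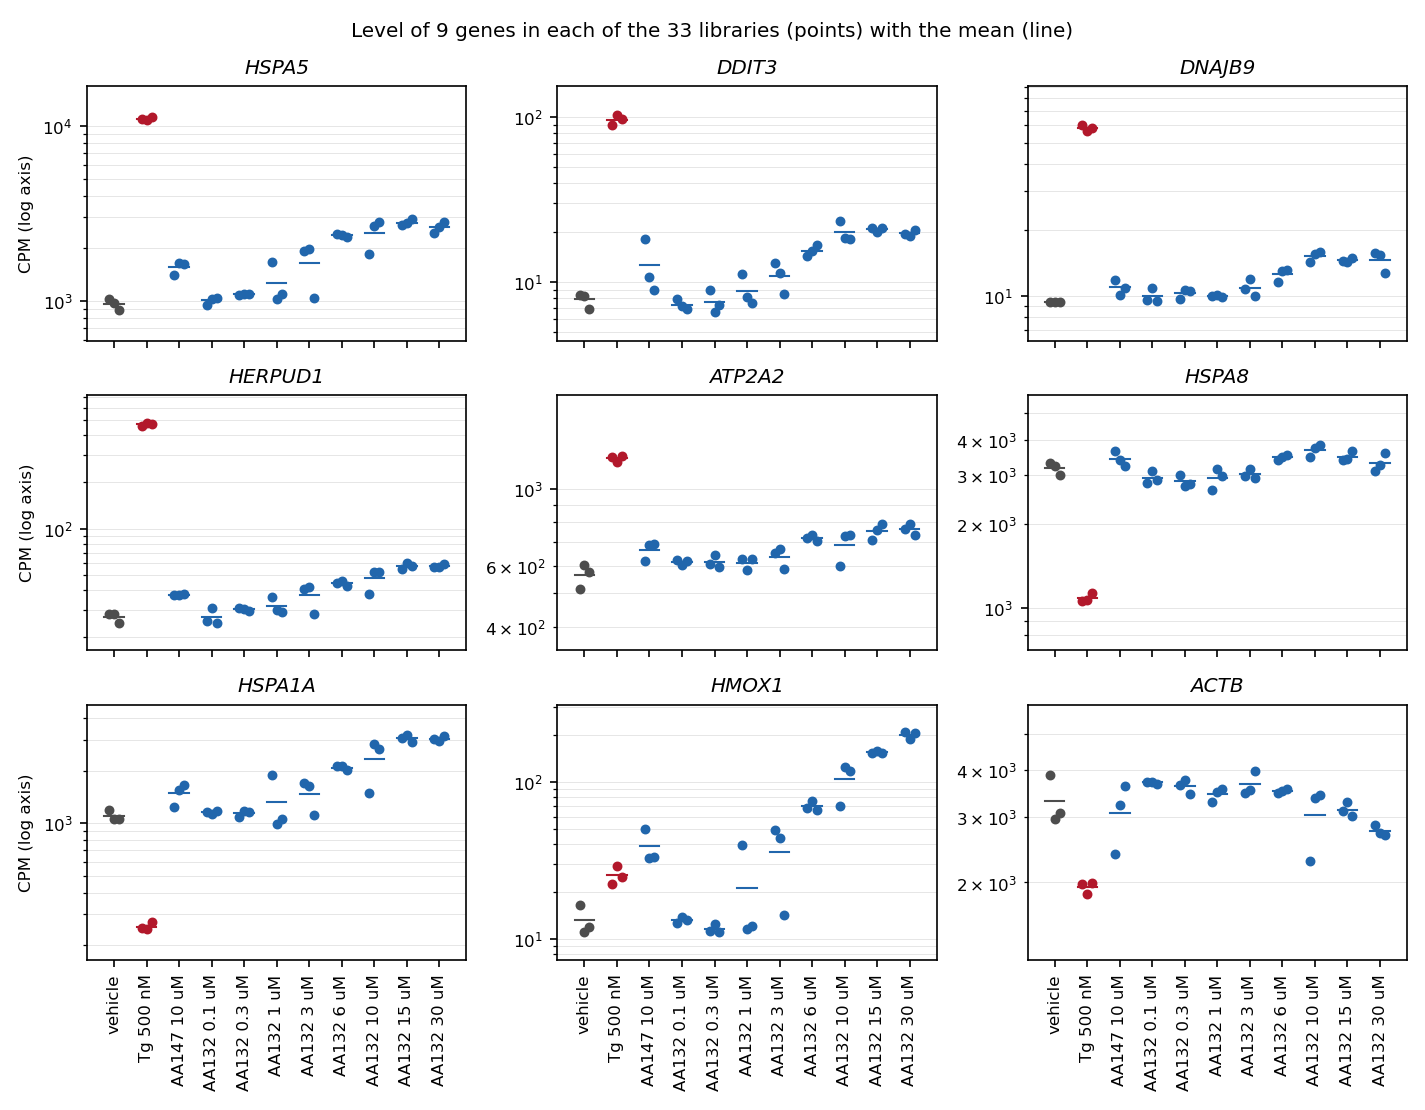
Level in CPM (log axis, with its own range in each panel) of 9 genes in each of the 33 libraries, grouped by condition on the horizontal axis. Points are libraries and lines the mean of 3, in grey for vehicle, red for Tg and blue for AA147 and AA132. Tg lies above all other libraries for HSPA5, DDIT3, DNAJB9, HERPUD1 and ATP2A2, below all others for HSPA8, HSPA1A and ACTB, and between vehicle and the higher AA132 doses for HMOX1.

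The promoters of 3 genes of this response are shown because each holds the ER stress element (ERSE) to which ATF6 is known to bind. The sequences are from RefSeq on GRCh38.p14, 300 bases from 250 before the start site to 50 after it, printed 5′ to 3′ on the strand of the gene. Capitals mark CCAAT, 9 bases of any kind and CCACG, or the reverse complement of that pattern. HSPA5 lies at chr9:125241294-125241593 (minus strand), HSP90B1, which encodes the ER chaperone GRP94, at chr12:103930160-103930459 (plus strand) and XBP1 at chr22:28800520-28800819 (minus strand).
HSPA5: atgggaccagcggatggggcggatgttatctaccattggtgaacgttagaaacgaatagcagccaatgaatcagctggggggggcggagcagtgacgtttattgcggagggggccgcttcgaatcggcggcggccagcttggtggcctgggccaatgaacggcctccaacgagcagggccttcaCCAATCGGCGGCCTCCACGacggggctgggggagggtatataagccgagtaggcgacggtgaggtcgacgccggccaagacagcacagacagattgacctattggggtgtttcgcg
HSP90B1: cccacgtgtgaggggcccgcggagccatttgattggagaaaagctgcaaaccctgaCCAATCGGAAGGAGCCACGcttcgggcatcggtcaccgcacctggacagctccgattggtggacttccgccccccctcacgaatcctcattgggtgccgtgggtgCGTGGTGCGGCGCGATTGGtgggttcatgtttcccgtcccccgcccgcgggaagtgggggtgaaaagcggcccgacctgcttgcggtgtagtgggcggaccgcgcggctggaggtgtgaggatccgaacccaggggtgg
XBP1: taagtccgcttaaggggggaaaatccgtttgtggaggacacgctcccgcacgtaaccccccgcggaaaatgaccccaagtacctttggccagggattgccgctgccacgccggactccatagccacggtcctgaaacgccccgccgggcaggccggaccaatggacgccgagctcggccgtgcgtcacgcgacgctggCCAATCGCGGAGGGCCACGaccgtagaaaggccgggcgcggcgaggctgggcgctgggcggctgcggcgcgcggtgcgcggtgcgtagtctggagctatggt
The HSPA5 window holds 1 match, which starts 66 bases before the start site, the HSP90B1 window holds 2 and the XBP1 window 1. Another 2 promoters, of which that of HYOU1 was chosen after its values were seen, hold the shorter ERSE-II (ATTGG, 1 base of any kind, CCACG), again in capitals. HERPUD1, whose product serves ER-associated degradation, lies at chr16:56931892-56932191 (plus strand). HYOU1, which encodes an ER chaperone that acts as an exchange factor of BiP, lies at chr11:119057156-119057455 (minus strand), and its capitals also mark a UPR element (TGACGTGG) that overlaps the first of its 2 ERSE-II matches.
HERPUD1: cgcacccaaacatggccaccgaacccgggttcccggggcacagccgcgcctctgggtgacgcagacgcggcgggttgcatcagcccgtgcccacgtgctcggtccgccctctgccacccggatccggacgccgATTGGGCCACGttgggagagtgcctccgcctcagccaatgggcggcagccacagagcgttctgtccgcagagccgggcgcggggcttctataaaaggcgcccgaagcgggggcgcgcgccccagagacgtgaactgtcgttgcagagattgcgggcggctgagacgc
HYOU1: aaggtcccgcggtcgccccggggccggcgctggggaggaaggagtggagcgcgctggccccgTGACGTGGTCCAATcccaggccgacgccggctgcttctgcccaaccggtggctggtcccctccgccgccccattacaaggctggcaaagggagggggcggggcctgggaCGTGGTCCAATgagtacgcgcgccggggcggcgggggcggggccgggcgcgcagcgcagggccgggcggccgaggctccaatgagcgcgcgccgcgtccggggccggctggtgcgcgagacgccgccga
The windows of DNAJB9, DDIT3, TRIB3, ASNS and CHAC1 held no match to these 3 motifs or to the C/EBP-ATF element.

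Across all genes, promoters with an ERSE belonged mostly to genes that were higher under Tg. RefSeq promoters were matched to 12947 of the 17793 genes tested (72.8%), of which 17.4% were called higher and 15.9% lower. The ERSE was found in 22 of the 27305 promoters of the table (0.0806%), and 18 of these belonged to tested genes. Of the 18 genes, 14 were called higher (77.8%) and 0 lower, with 0 lower also at an unadjusted p under 0.05, by DESeq2 and by limma voom. The counts were 15 and 0 without vehicle library 1. They included the chaperones HSPA5 (3.52), CRELD2 (2.36), HSP90B1 (2.02), CANX (1.41) and CALR (1.32), the oxidase ERO1B (1.68) and the transcription factor XBP1 (2.24), all as log2 fold changes. ERSE-II was found in 15 promoters of the table (0.0549%), and of 12 tested genes with it 6 were higher and 2 lower. Both patterns share CCACG, and the UPR element ends in its reverse complement. HERPUD1 (4.12), HYOU1 (2.80) and SDF2L1 (2.59) had the largest rises among them.

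The UPR element, TGACGTGG, was in 0.795% of all promoters and in 123 tested genes. Of these, 54 (43.9%) were called higher and 10 (8.13%) lower. Genes of transport between ER and Golgi held it in 10 of their 40 promoters, which is 25%. The C/EBP-ATF element, TGATGNAAT, was in 1.02% of all promoters and in 67 tested genes, of which 21 (31.3%) were higher and 3 (4.48%) lower. The sterol element TCACNCCAC was in 1.15% of all promoters and in 141 tested genes, of which 25 (17.7%) were higher and 18 (12.8%) lower, close to the shares of all genes with a promoter. All motifs were searched on both strands, and a match describes letters in this window only.

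**Figure D3:**
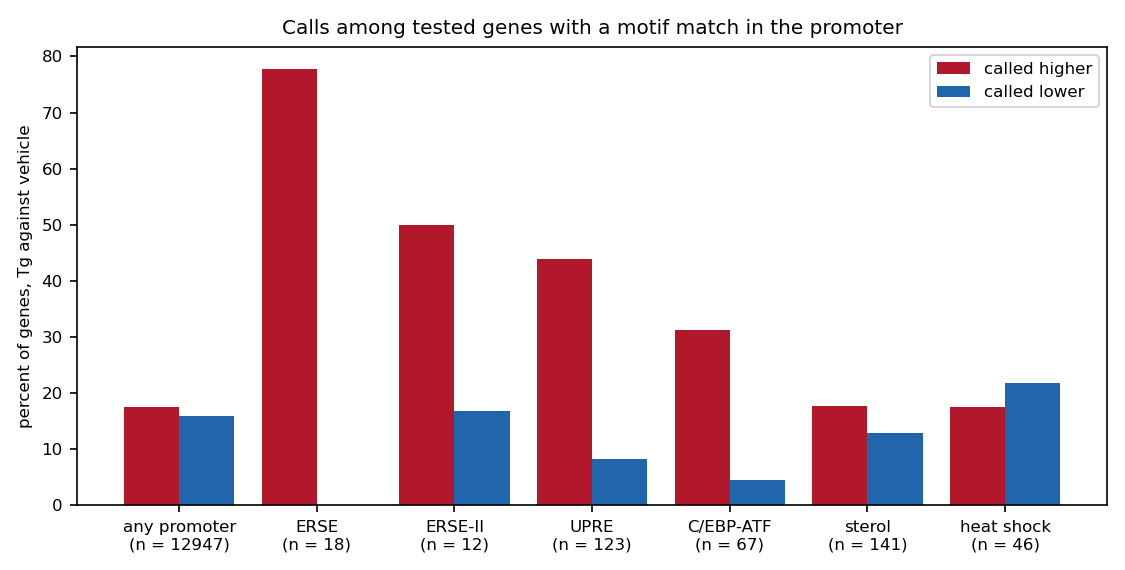
Percent of tested genes called higher (red) and lower (blue) under Tg against vehicle, among all genes with a RefSeq promoter and among those with a match to each motif (n genes under each name). Bars start at 0. The share called higher is 77.8% with an ERSE and 43.9% with a UPR element, against 17.4% over all promoters, while genes with a sterol element lie near the shares of all promoters.

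Most chaperones and folding enzymes of the ER lumen rose. Of 38 tested, 31 were called higher and 1 lower, against 16.2% and 15% of all genes, and the median log2 fold change was 1.17. Together they took 3.47% to 3.58% of counts under Tg and at most 0.923% in a vehicle library, with 0.903% to 1.48% in the other 27 libraries. After HSPA5, PDIA4, a disulfide isomerase, and HYOU1 rose most. PDIA4 was at 450.2, 442 and 445 CPM in vehicle and 3152, 3205 and 3319 CPM under Tg (log2 fold change 2.85, SE 0.12, edgeR adjusted p = 1.86e-19). HYOU1 was at 476, 435 and 461 CPM in vehicle and 3085, 3207 and 3248 CPM under Tg (2.80, SE 0.10, adjusted p = 5.07e-21). HSP90B1 (chr12:103930107-103953931) was at 1280.4, 1266 and 1164 CPM in vehicle and 5018, 4984 and 5004 CPM under Tg. None of these groups overlapped. PRDX4, an ER peroxiredoxin, was the 1 member called lower (-0.22, adjusted p = 0.0293). Its groups overlapped, and it was not called without vehicle library 1, Tg library 1 or Tg library 2 (adjusted p = 0.333, 0.108 and 0.0765), with only the 6 libraries in the fit (0.199) or with AA132 at 0.1 µM in place of vehicle (0.459).

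Genes of ER-associated degradation, which returns misfolded proteins to the cytosol for the proteasome, rose in part. Of 37 tested, 20 were called higher and 3 lower (54.1% and 8.11%, against 16.2% and 15% of all genes). The median log2 fold change was 0.22. HERPUD1 (chr16:56932142-56944864) had the largest change of the list, from 28.3, 28.1 and 24.7 CPM in vehicle to 461, 481 and 472 CPM under Tg (log2 fold change 4.12, SE 0.12, edgeR adjusted p = 1.61e-22). DERL3, a channel protein of the Derlin family, was at 16.02, 11.6 and 13.3 CPM in vehicle and 108, 103 and 101 CPM under Tg. SEL1L, the adaptor of the ubiquitin ligase HRD1, was at 29.2, 54.3 and 53.6 CPM and 287, 273 and 276 CPM. Vehicle library 1 was the lowest of its group for SEL1L, and the Tg values were still far above all 3. The 3 members called lower were NPLOC4, a cofactor of the ATPase VCP (-0.32), TRIM13 (-0.36) and the ubiquitin-conjugating enzyme UBE2G2 (-0.23). All 3 were smaller than 0.5 on the log2 scale, and TRIM13 was not called without vehicle library 2 or Tg library 1 (adjusted p = 0.0789 and 0.0974). With only the 6 libraries in the fit, TRIM13 and UBE2G2 were not called (0.0596 and 0.0663), nor was TRIM13 with AA132 at 0.1 µM in place of vehicle (0.068).

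Sensors and transcription factors of the response were themselves higher. Of 28 tested, 21 were called higher and 1 lower (75% and 3.57%, against 16.2% and 15% of all genes). The median log2 fold change was 1.02. The genes of the 3 sensors rose by different amounts. EIF2AK3, which encodes PERK, was at 33.97, 41.4 and 39.2 CPM in vehicle and 104, 114 and 111 CPM under Tg (log2 fold change 1.52, SE 0.07, edgeR adjusted p = 7.76e-18). Its counts were fractional in all 33 libraries, and the source of the fractions was not tested. ERN1, which encodes IRE1alpha, was at 3.69, 5.54 and 6.97 CPM and 13.6, 11.5 and 12.8 CPM (1.22, SE 0.17, adjusted p = 8.86e-07). ATF6 was at 86.8, 101 and 96.6 CPM and 149.7, 152 and 154 CPM (0.68, SE 0.06, adjusted p = 2.47e-11). No Tg value of any of the 3 genes lay within its vehicle range.

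Among the transcription factors, XBP1 (chr22:28794555-28800597) was at 82.1, 71.98 and 73.2 CPM in vehicle and 343, 369.9 and 358 CPM under Tg, a gene-level count that does not separate its spliced form. ATF4 (chr22:39519695-39522683) was at 528, 437 and 433 CPM and 978, 984 and 984 CPM (log2 fold change 1.08). Groups were apart for both genes. TRIB3, a pseudokinase induced by ATF4 and CHOP, rose more, from 33.3, 21.3 and 26.2 CPM to 405, 388 and 401 CPM (3.88, SE 0.12, edgeR adjusted p = 4.29e-22). CEBPB, a C/EBP factor, rose by 2.73, with fractional counts in all libraries. MBTPS1, the site-1 protease that cuts ATF6, was the 1 member called lower (-0.27, adjusted p = 7.5e-05).

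Amino acid synthesis and transport genes, many of them known ATF4 targets, had the highest list median. Of 29 tested, 24 were called higher and 2 lower (82.8% and 6.9%, against 16.2% and 15% of all genes). The median log2 fold change was 1.37. The 3 largest rises were those of carriers. SLC7A11, the cystine carrier, was at 2.74, 6.35 and 6.02 CPM in vehicle and 63.8, 66.1 and 60.7 CPM under Tg. SLC6A9, a glycine carrier, was at 22.3, 19.4 and 18.96 CPM and 188, 196 and 193 CPM. SLC7A3, a carrier of basic amino acids, stayed low, at 0.222, 0.136 and 0.0795 CPM and 2.58, 2.48 and 1.85 CPM. Vehicle library 1 was the lowest of its group for SLC7A11, and no Tg library came near the vehicle values of these 3 genes. ASNS, the asparagine synthetase, was at 201, 185 and 175 CPM and 720.1, 672 and 699 CPM (log2 fold change 1.90, SE 0.07, edgeR adjusted p = 2.79e-20). The 2 members called lower, SLC36A1 (-0.37) and SHMT1 (-0.21), fell by less than 0.5 on the log2 scale. SHMT1 was not called without vehicle library 1 or Tg library 1 (adjusted p = 0.148 and 0.0869), and SLC36A1 not without vehicle library 2, vehicle library 3 or Tg library 1 (0.128, 0.133 and 0.072). With only the 6 libraries in the fit neither was called (SHMT1 0.163, SLC36A1 0.175).

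Cytosolic aminoacyl-tRNA synthetases, which charge tRNAs with amino acids, mostly rose. Of 20 tested, 15 were called higher and 4 lower (75% and 20%, against 16.2% and 15% of all genes). The median log2 fold change was 0.58. WARS1 (listed as WARS), the tryptophan enzyme, was at 121, 119.9 and 121 CPM in vehicle and 388, 363 and 406 CPM under Tg (1.68, SE 0.07, edgeR adjusted p = 1.85e-18). AARS1 (listed as AARS) and SARS1 (listed as SARS) followed at 1.25 and 1.07. The enzymes of arginine, glutamine and valine went the other way, with log2 fold changes of -0.34 for RARS1, -0.26 for QARS1 and -0.28 for VARS1. Without vehicle library 1, 2 members instead of 4 were called lower, and VARS1 was not among them (adjusted p = 0.132, and 0.0579 without Tg library 2). With only the 6 libraries in the fit, VARS1 and QARS1 were not called (0.0883 and 0.0621). With AA132 at 0.1 µM in place of vehicle, RARS1 was at -0.17 and not called (0.0633). HARS1 (listed as HARS) was the fourth (-0.24). The 2 still called lower without vehicle library 1 were RARS1 and QARS1, so HARS1 was not called lower there either.

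Effectors, secreted factors and death genes, described elsewhere as downstream of ATF4 and CHOP, rose in part. Of 29 tested, 18 were called higher and 2 lower (62.1% and 6.9%, against 16.2% and 15% of all genes). The median log2 fold change was 0.73. GDF15, ADM2 and FGF21, which encode secreted stress hormones, had the largest rises but low levels. FGF21 was at 0.333, 0.136 and 0.398 CPM in vehicle and 3.72, 4.45 and 3.704 CPM under Tg. ADM2 was at 0.139, 0.163 and 0.106 CPM and 2.25, 2.43 and 3.13 CPM. GDF15 was at 0.166, 0 and 0 CPM and 1.66, 1.45 and 1.12 CPM. Each Tg value was above every vehicle value of the same gene, while the vehicle values rest on few counts. The C/EBP-ATF element was in 1 of the 24 promoters of this list and in 1 of the 22 of the amino acid list. The promoter of FGF21 (chr19:48755274-48755573, plus strand, GRCh38.p14, RefSeq), the 1 of this list with it, is shown with the element in capitals.
FGF21: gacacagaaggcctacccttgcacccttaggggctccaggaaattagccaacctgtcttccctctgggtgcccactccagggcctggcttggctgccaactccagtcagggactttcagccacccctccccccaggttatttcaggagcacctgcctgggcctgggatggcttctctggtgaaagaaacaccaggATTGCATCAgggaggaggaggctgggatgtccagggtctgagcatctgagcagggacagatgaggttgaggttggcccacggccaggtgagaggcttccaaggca
CHAC1, an enzyme that degrades glutathione, was at 6.43, 4.51 and 5.302 CPM in vehicle and 35.5, 43.2 and 39.8 CPM under Tg (log2 fold change 2.87, SE 0.15, edgeR adjusted p = 2.08e-16). SESN2, a sestrin that restrains mTORC1, was at 76.3, 69.5 and 72.5 CPM and 365, 371 and 368 CPM (2.34). VEGFA, the vascular growth factor, rose by 1.55 and TXNIP, an inhibitor of thioredoxin, by 1.81 on the same scale. ADM, the precursor of adrenomedullin, fell by 0.70, and BAX, a pore-forming death protein, was lower by a log2 fold change of -0.32 with all libraries and was not called without vehicle library 1 (adjusted p = 0.135), with only the 6 libraries in the fit (0.125) or with AA132 at 0.1 µM in place of vehicle (0.0524).

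**Figure D4:**
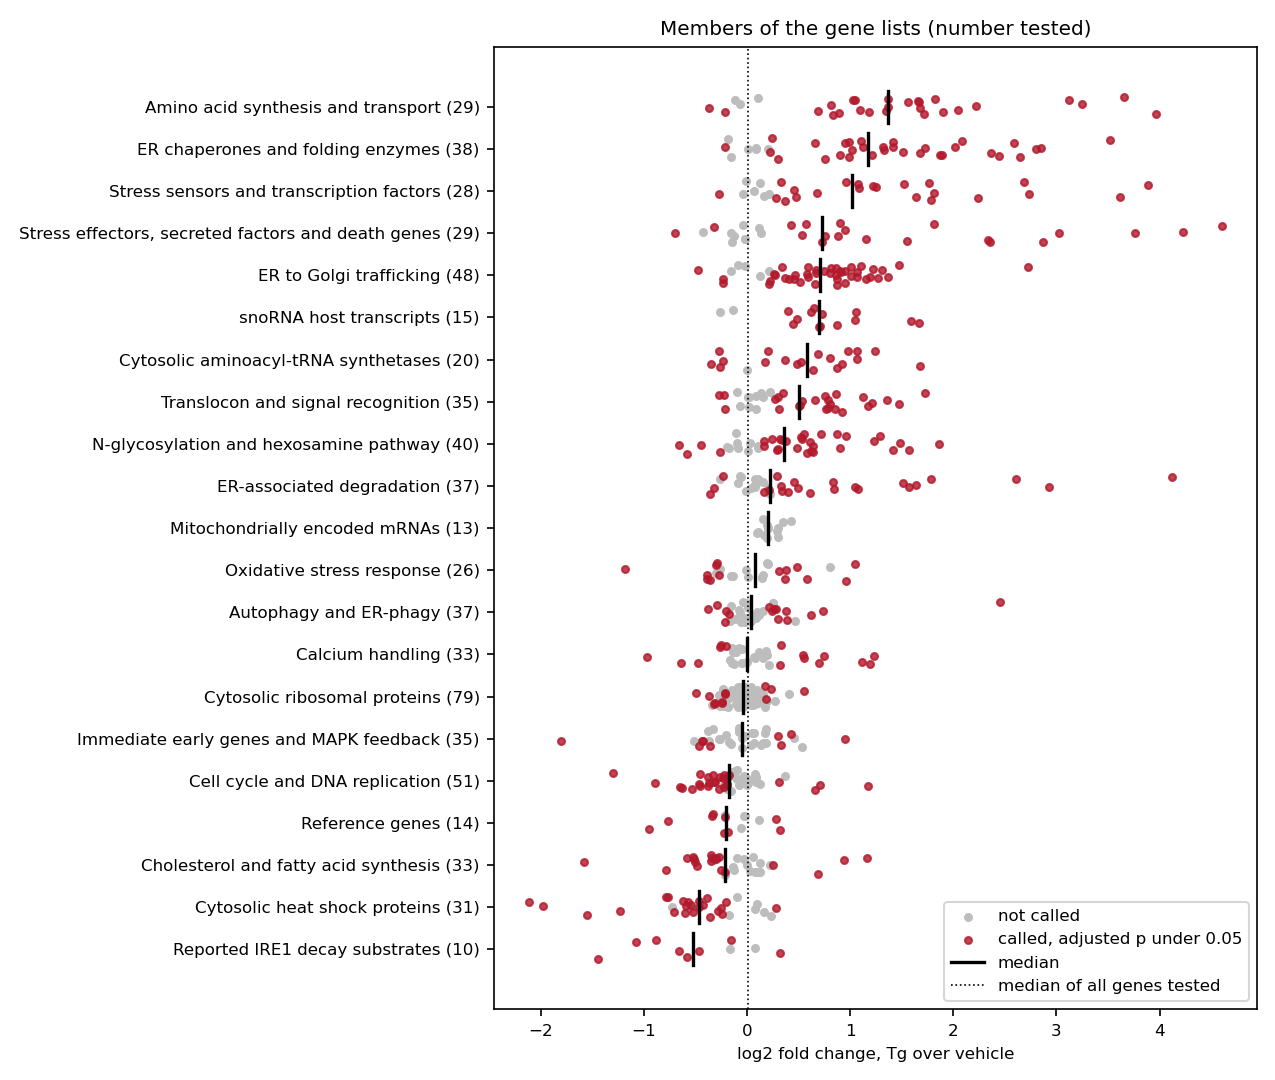
Log2 fold change of Tg over vehicle (horizontal axis) for each tested member of 21 gene lists, ordered by their median, with the number tested in parentheses. Red points were called at an adjusted p under 0.05, grey points were not, black bars are list medians and the dotted line is the median of all genes tested. The lists of amino acid genes, ER chaperones and stress factors have medians above 1, and those of cytosolic heat shock proteins and IRE1 decay substrates lie furthest below 0.

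The path of proteins through the ER and on to the Golgi rose at several steps. Of 48 tested genes of coats, cargo receptors and retrieval, 40 were called higher and 3 lower (83.3% and 6.25%). Over all genes the shares were 16.2% and 15%. The median log2 fold change of these 48 was 0.71. SEC24D, a cargo-binding subunit of the COPII coat, stood out of this list, at 34.6, 42.9 and 46.03 CPM in vehicle and 282, 268 and 265 CPM under Tg (2.72, SE 0.09, edgeR adjusted p = 4.29e-22). TMED7, a cargo receptor, and STX5, a Golgi SNARE, followed at 1.48 and 1.36. The 3 members called lower were the 3 ERGIC genes of the intermediate compartment, ERGIC1 (-0.47), ERGIC2 (-0.23) and ERGIC3 (-0.23), of which ERGIC3 was not called without vehicle library 1 or Tg library 2 (adjusted p = 0.381 and 0.0502) and ERGIC2 not without vehicle library 2 or Tg library 2 (0.109 and 0.0874). With only the 6 libraries in the fit, ERGIC2 and ERGIC3 were not called (0.113 and 0.226), nor was ERGIC2 with AA132 at 0.1 µM in place of vehicle (0.0698). Of 35 tested genes of the translocon and of signal recognition, 22 were called higher and 3 lower (62.9% and 8.57%, median 0.50). SSR3 (1.73) and SSR1 (1.35), of the translocon-associated complex, and SEC61A1 (1.47), the channel itself, rose most. SEC61B, a small subunit of the channel, was at 191, 178 and 182 CPM and 297, 279 and 293 CPM (0.66). Without vehicle library 1, the count higher was still 22 and the count lower was 0. The 3 earlier calls were those of SRP14, EMC10 and GET3 (listed as ASNA1), with adjusted p = 0.232, 0.369 and 0.154 there. SRP14 was also not called without vehicle library 3, Tg library 1 or Tg library 2 (0.0821, 0.106 and 0.119), nor EMC10 without Tg library 1, 2 or 3 (0.0679, 0.0515 and 0.0714). None of these 3 was called with only the 6 libraries in the fit (SRP14 0.137, EMC10 0.207, GET3 0.114), nor SRP14 and GET3 with AA132 at 0.1 µM in place of vehicle (0.0526 and 0.051), nor SRP14 with limma voom (0.0524) or with the column number as a block (0.0545).

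N-glycosylation and the supply of its sugars gave 27 of 40 tested genes higher and 4 lower (67.5% and 10%). Shares over all genes were 16.2% and 15%. The median log2 fold change of these 40 was 0.36. GFPT1, the first enzyme of the hexosamine pathway, was at 52.5, 84.5 and 76.5 CPM in vehicle and 247, 261 and 268 CPM under Tg (1.86, SE 0.10, edgeR adjusted p = 7.92e-16). GMPPB, which makes GDP-mannose, rose by 1.57 and MAGT1, an oxidoreductase subunit of the oligosaccharyltransferase, by 1.48. The largest falls were those of MAN1B1, a mannosidase (-0.66), ALG6, a glucosyltransferase (-0.58), and DOLK, the dolichol kinase (-0.45).

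Calcium handling genes had no common direction. Of 33 tested, 9 were called higher and 6 lower (27.3% and 18.2%, against 16.2% and 15% of all genes). The median log2 fold change was 0.001, from -0.06 to 0.05 over the settings tried. Of the genes of the pump that thapsigargin blocks, ATP2A2 (chr12:110280756-110351093), which encodes the widely expressed SERCA2, was at 512, 603 and 577 CPM in vehicle and 1235, 1197 and 1240.4 CPM under Tg (log2 fold change 1.12, SE 0.07, edgeR adjusted p = 1.21e-14). ATP2A3, which encodes SERCA3, was at 2.55, 2.63 and 2.57 CPM and 1.66, 1.28 and 1.01 CPM (-0.97, SE 0.26, adjusted p = 0.00346). Groups did not overlap for either gene, and the directions were opposite. RCAN1, an inhibitor of calcineurin and a known target of its NFAT pathway, rose by 1.23, and NUCB2, a calcium-binding nucleobindin, by 1.19. ATP2B4, a calcium pump of the plasma membrane, fell by 0.64, with overlapping groups, and its vehicle library 1 (11.6 CPM) lay within the Tg range. With only the 6 libraries in the fit it was not called (adjusted p = 0.0606).

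Transcripts described elsewhere as cut by IRE1 were mostly lower. Of 10 tested, 7 were called lower and 1 higher (70% and 10%, against 15% and 16.2% of all genes). The median log2 fold change was -0.53. DGAT2, an enzyme of triglyceride synthesis, was at 2.33, 1.55 and 2.36 CPM in vehicle and 0.978, 0.328 and 0.9804 CPM under Tg. CD59, a complement inhibitor at the cell surface, was at 71.7, 72.6 and 60.3 CPM and 31.5, 33.7 and 32.1 CPM (log2 fold change -1.07, SE 0.08, edgeR adjusted p = 8.62e-13). SCARA3, a scavenger receptor, was at 17.01, 18.5 and 19.8 CPM and 10.1, 11.03 and 8.96 CPM (-0.88). Groups were apart for these 3 genes. BLOC1S1, the substrate most often used as a readout, was at 14.9, 10.3 and 12.9 CPM in vehicle and 8.799, 7.51 and 17.6 CPM under Tg, with overlapping groups and a log2 fold change of -0.17 (SE 0.27, adjusted p = 0.689). Its sign depended on 1 library, and was 0.06 without Tg library 2. Its counts were fractional in some libraries. HGSNAT, a lysosomal enzyme, was the member called higher (0.32).

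The list of cytosolic heat shock proteins mostly moved against the chaperones of the ER. It holds chaperones of the cytosol and nucleus and their cofactors. It also holds the mitochondrial chaperonins HSPD1 and HSPE1, the transcription factors HSF1 and HSF2, and SERPINB1. Of 31 tested, 22 were called lower and 1 higher, against 15% and 16.2% of all genes, with a median log2 fold change of -0.47. The members of this list took 0.939% to 0.972% of counts under Tg, below the 1.65% to 2.27% of the 27 libraries of AA147 and AA132. HSPA8 (chr11:123057489-123063230), the constitutive HSP70, was at 3308, 3238 and 3015 CPM in vehicle and 1059.9, 1068 and 1133 CPM under Tg (log2 fold change -1.55, SE 0.07, edgeR adjusted p = 8.08e-19). HSPA1A (chr6:31815543-31817946), the stress-inducible HSP70, was at 1197, 1053 and 1060.3 CPM and 249, 247 and 269 CPM (-2.11, SE 0.18, adjusted p = 3.27e-11). HSPA1B, a near-identical copy, was at 1498, 1280.1 and 1319 CPM and 336, 341 and 364 CPM, and how reads were divided between HSPA1A and HSPA1B is uncertain. The Tg libraries were the lowest of all 33 for these 3 genes. SERPINB1, a protease inhibitor, was the member called higher (0.28, and adjusted p = 0.0779 with only the 6 libraries in the fit), and 2 members were called higher without vehicle library 1. A heat shock element (GAA, 2 bases, TTC, 2 bases, GAA, either strand) was in 0.487% of all promoters and in 5 of the 27 promoters of this list. Of 46 tested genes with it, 8 were higher and 10 lower (17.4% and 21.7%). Over all tested genes with a promoter the shares were 17.4% and 15.9%, so the share higher was the same. The promoter of HSPA8 (chr11:123062087-123062386, minus strand, GRCh38.p14, RefSeq) holds 2 matches, in capitals. Like that of FGF21, it was chosen after its values were seen.
HSPA8: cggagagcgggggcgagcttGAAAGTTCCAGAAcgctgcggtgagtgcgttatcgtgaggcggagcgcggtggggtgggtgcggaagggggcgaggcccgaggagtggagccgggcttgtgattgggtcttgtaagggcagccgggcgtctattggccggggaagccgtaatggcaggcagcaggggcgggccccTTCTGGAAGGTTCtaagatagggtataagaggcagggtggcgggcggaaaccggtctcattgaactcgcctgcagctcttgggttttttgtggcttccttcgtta

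Oxidative stress genes split evenly under Tg. Of 26 tested, 7 were called higher and 7 lower (26.9% each, against 16.2% and 15% of all genes). The median log2 fold change was 0.08. The sign of this median turned to -0.01 when only genes with at least 5 CPM were tested. OSGIN1, an oxidative stress-induced growth inhibitor, was at 1.88, 1.71 and 1.59 CPM in vehicle and 2.74, 3.68 and 4.303 CPM under Tg (1.05). GCLC, of glutathione synthesis, rose by 0.58. HMOX1, heme oxygenase, was at 16.4, 11.1 and 11.9 CPM and 22.4, 29.3 and 24.9 CPM (log2 fold change 0.96, SE 0.33, edgeR adjusted p = 0.0256). Its groups did not overlap, but the call was lost without vehicle library 2 (adjusted p = 0.0908), vehicle library 3 (0.0764), Tg library 2 (0.0917) or Tg library 3 (0.0535). PRDX1, a cytosolic peroxiredoxin, fell from 1004, 887 and 856 CPM to 398, 393 and 418 CPM (-1.18, SE 0.07, adjusted p = 1.05e-14). TXN (-0.39) and PGD (-0.39), which encode thioredoxin and a NADPH-producing enzyme, were also lower.

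Lipid synthesis genes under SREBP control were lower more often than higher. Of 33 tested, 15 were called lower and 4 higher (45.5% and 12.1%, against 15% and 16.2% of all genes). The median log2 fold change was -0.21. FDFT1, squalene synthase, was at 321, 306 and 292 CPM in vehicle and 201, 204 and 209 CPM under Tg (-0.58, SE 0.05, edgeR adjusted p = 9.72e-11). In the other direction, SREBF1, which encodes SREBP1, was at 12.2, 10.2 and 9.92 CPM and 24.6, 25.5 and 22.4 CPM (1.17). STARD4, a sterol carrier, rose by 0.94 and HSD17B7 by 0.69. INSIG1 and HMGCS1, which are often read as sterol responses, were not called. INSIG1 was at 62.5, 75.6 and 81.7 CPM and 64.8, 64.7 and 60.1 CPM, and HMGCS1 at 248, 333 and 327 CPM and 319, 348 and 323 CPM, with overlapping groups. The log2 fold change of HMGCS1 was 0.12, and -0.006 without vehicle library 1.

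Genes of the cell cycle and DNA replication were more often lower than higher. Of 51 tested, 23 were called lower and 4 higher (45.1% and 7.84%, against 15% and 16.2% of all genes). The median log2 fold change was -0.17. CCND1, cyclin D1, was at 32.7, 34.3 and 38.3 CPM in vehicle and 19.1, 19.5 and 18.2 CPM under Tg (-0.89, SE 0.12, edgeR adjusted p = 6.63e-07). ORC1, of the origin recognition complex (-0.65), and CDKN1C, a cyclin-dependent kinase inhibitor (-1.296), also fell. CDC6, which loads the replicative helicase at origins, went the other way, from 202, 199.8 and 201 CPM to 448, 452 and 457 CPM (1.17, SE 0.06, adjusted p = 2.4e-17). CDC45, part of that helicase, rose by 0.66 and CCND2, cyclin D2, by 0.71. CCNE2, cyclin E2, was at 24.9, 34.6 and 38.3 CPM and 31.8, 31.3 and 30.7 CPM, with overlapping groups and no call.

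Transcripts that carry snoRNAs in their introns, many of which are known to be cleared by decay coupled to translation, rose as a group. Of 15 tested, 13 were called higher (86.7%) and 0 lower, against 16.2% and 15% of all genes. These counts were the same by DESeq2 and limma voom, with 1 lower at an unadjusted p under 0.05. The median log2 fold change was 0.69. ZFAS1 was at 28.9, 27.7 and 22.03 CPM in vehicle and 80.6, 86.7 and 81.8 CPM under Tg (log2 fold change 1.66, SE 0.12, edgeR adjusted p = 2.04e-13). SNHG32 (listed as C6orf48) was at 33.7, 32.3 and 28.8 CPM and 96.4, 90.3 and 98.96 CPM (1.59). GAS5 was at 14.6, 13.9 and 13.1 CPM and 20.7, 22.2 and 21.1 CPM (0.62). Tg libraries were above vehicle libraries in each of these 3.

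Cytosolic ribosomal protein genes showed no shift that held over the libraries. Of 79 tested, 4 were called higher and 8 lower, below the background of 16.2% and 15%, with a median log2 fold change of -0.04. Without vehicle library 1, 13 were called higher and 1 lower, and the median was 0.09. RPS27 had the largest rise (0.56), not called without vehicle library 3 (adjusted p = 0.0575). RPS15 had the largest fall (-0.50), which was not called without vehicle library 1 (adjusted p = 0.0703). The 13 mitochondrially encoded mRNAs gave 0 calls in edgeR, DESeq2 and limma voom, and 4 at an unadjusted p under 0.05. All 13 had positive log2 fold changes, from 0.10 to 0.42.

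Among 35 immediate early and MAP kinase feedback genes, 4 were called higher and 5 lower, which is 11.4% and 14.3% against 16.2% and 15% of all genes (median -0.05). FOS, a subunit of AP-1, was at 2.55, 4.42 and 3.58 CPM in vehicle and 6.599, 7.56 and 6.29 CPM under Tg (0.95, SE 0.19, edgeR adjusted p = 0.000234). KLF4, a zinc finger factor, rose by 0.43. EDN1, which encodes the endothelin-1 precursor, fell from 6.29, 7.03 and 7.45 CPM to 1.87, 2.05 and 2.02 CPM (-1.81, SE 0.18, adjusted p = 1.07e-09). IER2 (-0.47) and IER5 (-0.44) were lower by less than 0.5 on the log2 scale.

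Autophagy and ER-phagy genes gave 10 of 37 tested higher and 5 lower (27% and 13.5%, against 16.2% and 15% of all genes). The median log2 fold change was 0.04, and -0.02 under upper quartile scaling. WIPI1, which binds phosphoinositides on forming autophagosomes, stood far from the rest, at 24.97, 25.02 and 24.1 CPM in vehicle and 139, 133 and 135 CPM under Tg (2.46, SE 0.12, edgeR adjusted p = 6.61e-18). ATG13 (0.74) and RB1CC1 (0.62), of the ULK1 kinase complex, were higher. RETREG2 (listed as FAM134A), an ER-phagy receptor, was lower (-0.38). Without vehicle library 1, 8 members were called higher and 2 lower. SQSTM1, the receptor p62, was at 229, 189 and 196 CPM and 182, 181 and 188 CPM and was not called (-0.16, adjusted p = 0.145).

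Genes often used as references for normalization were not stable. Of 14 tested, 7 were called lower and 2 higher (50% and 14.3%, against 15% and 16.2% of all genes). The median log2 fold change was -0.20. TUBB, a beta tubulin, was at 3853, 3543 and 3541 CPM in vehicle and 1874, 1906 and 1894 CPM under Tg (-0.95, SE 0.06, edgeR adjusted p = 3.41e-15). ACTB, beta actin, was at 3884, 2965 and 3072 CPM and 1986, 1862 and 1998 CPM (-0.76, SE 0.11, adjusted p = 2.21e-06). PPIA fell by 0.34, while TBP was higher by 0.28. TBP was not called with only the 6 libraries in the fit (adjusted p = 0.0512), and was at 0.10 with AA132 at 0.1 µM in place of vehicle (adjusted p = 0.353). In whole-culture RNA such as this, fewer cells of a kind and less RNA per cell cannot be told apart.

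Over all genes, the largest rises at 5 CPM or more went beyond the lists of the unfolded protein response. KLHDC7B (chr22:50545899-50551023), which encodes a kelch-domain protein, had no count in any vehicle library and was at 4.399, 6.03 and 6.07 CPM under Tg, at least 67.6-fold higher against 3 counts per vehicle library. In the 27 libraries of AA147 and AA132 it reached at most 0.110 CPM. Its promoter held a C/EBP-ATF element, while the windows of HERPUD1, TRIB3, ALPK2, BHLHA15 and MIOX, also among these largest rises, held none. The KLHDC7B promoter (chr22:50545649-50545948, plus strand, GRCh38.p14, RefSeq) is shown with the element in capitals.
KLHDC7B: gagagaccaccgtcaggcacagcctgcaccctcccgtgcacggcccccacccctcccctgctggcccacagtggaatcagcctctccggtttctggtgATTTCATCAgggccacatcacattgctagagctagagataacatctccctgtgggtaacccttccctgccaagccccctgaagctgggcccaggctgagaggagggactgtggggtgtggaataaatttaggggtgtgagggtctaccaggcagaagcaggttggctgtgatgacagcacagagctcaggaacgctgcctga
INHBE, a subunit of activin E, was at 0.222, 0.407 and 0.345 CPM in vehicle and 7.82, 7.29 and 8.31 CPM under Tg (log2 fold change 4.57, SE 0.42, edgeR adjusted p = 1.52e-10). BHLHA15, the factor MIST1 of secretory cells, was at 0.748, 0.543 and 0.663 CPM and 10.5, 11.7 and 11.8 CPM (4.11). The remaining genes of this set, besides HERPUD1 and TRIB3, were BEST1, a chloride channel (4.38), ALPK2, an alpha kinase (4.26), RAB39B, a small GTPase (4.16), CALCB, a calcitonin gene-related peptide (4.01), and MIOX, the inositol oxygenase (3.96). All 3 Tg values of each gene named in this set were more than 10 times its highest vehicle value.

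The largest falls at 5 CPM or more, besides HSPA1A, HSPA1B, HSPA8 and EDN1, included several genes of the cell surface and matrix. MAP2K6 (chr17:69414697-69553865), a kinase upstream of p38, was at 4.32, 5.94 and 4.75 CPM in vehicle and 1.005, 1.31 and 1.17 CPM under Tg (log2 fold change -2.10, SE 0.17, edgeR adjusted p = 3.66e-12). BCAM, a laminin receptor, was at 29.9, 20.1 and 19.5 CPM and 6.25, 6.44 and 5.47 CPM (-1.94). COL2A1, a fibrillar collagen chain, was at 40.2, 37.5 and 37.97 CPM and 11.6, 11.8 and 13.4 CPM (-1.65), with fractional counts in some libraries. Vehicle library 1 was the highest of its group for BCAM, and no group overlapped. NYNRIN (-1.58), the adhesion protein LRRC4 (-1.53) and NES (-1.51), the intermediate filament nestin and a marker of the line, completed this set.

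Tg was next compared directly with AA132 at 30 µM, a test that uses no vehicle library. Of 17793 genes, 5305 (29.8%) were called, 2752 higher under Tg (15.5%) and 2553 lower (14.3%). AA132 at 30 µM against the same 3 vehicle libraries gave 1255 calls (7.05%). Because both treatments share these libraries, their changes from vehicle are given side by side only. ER chaperones had a median log2 fold change of 1.17 under Tg and 0.31 under AA132, and 28 of 38 were higher under Tg in the direct test. For amino acid genes the medians were 1.37 and 0.47, with 23 of 29 higher under Tg. Genes of transport between ER and Golgi had medians of 0.71 and 0.05, and 40 of 48 were higher under Tg. HSPA5 was at 2636 ± 183 CPM (SD, n = 3) under AA132 and higher by 2.06 on the log2 scale under Tg (SE 0.16, edgeR adjusted p = 5.23e-12).

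In the other direction stood cytosolic heat shock proteins and oxidative stress genes. Cytosolic heat shock proteins had a median of -0.47 under Tg and 0.05 under AA132, and 25 of 31 were lower under Tg in the direct test. Of these 31, 6 were called in opposite directions against vehicle by the 2 treatments. Oxidative stress genes had medians of 0.08 and 0.30, and 17 of 26 were lower under Tg. HSPA1A was at 3045 ± 94.1 CPM under AA132, and Tg differed from it by a log2 fold change of -3.58 (SE 0.19, edgeR adjusted p = 8.06e-16). HMOX1 was at 201 ± 10.00 CPM under AA132, a difference of -2.98 (SE 0.33, adjusted p = 9.73e-09). HSPA6, a strictly inducible HSP70, was at 8.06 ± 0.447 CPM under AA132, 1.63, 1.74 and 1.697 CPM in vehicle and 0.9505, 1.17 and 1.36 CPM under Tg. BCAM, at 19.99 ± 0.844 CPM under AA132, was the remaining gene of the 5 lowest against it, with HSPA1B. The 5 highest against AA132 were KLHDC7B, BHLHA15 (4.03), INHBE (3.65), RAB39B (3.31) and ALPK2 (3.24). For KLHDC7B, AA132 libraries averaged 0.0818 CPM.

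**Figure D5:**
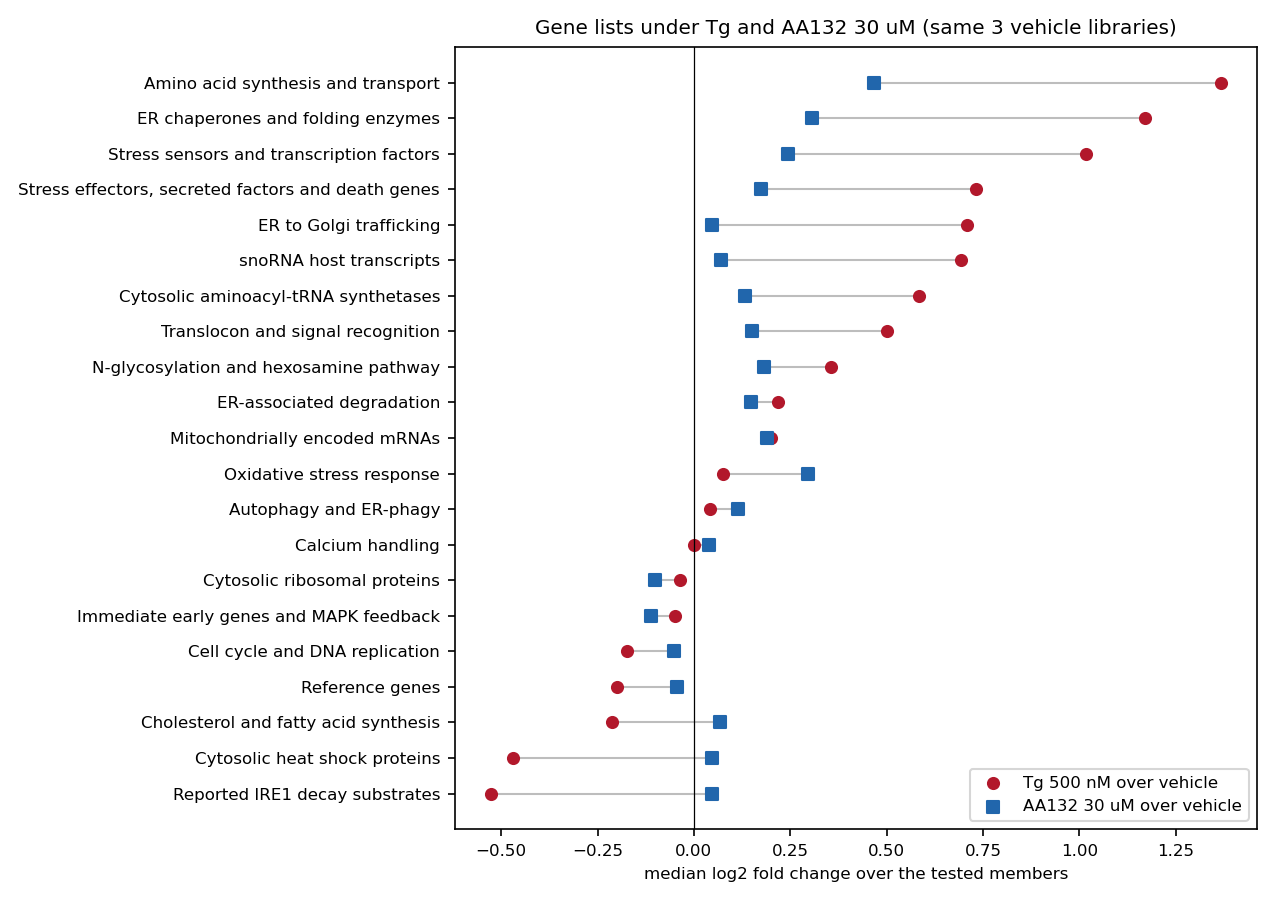
Median log2 fold change against vehicle (horizontal axis) over the tested members of each gene list, for Tg (red circles) and AA132 at 30 µM (blue squares), which share the 3 vehicle libraries. Lines join the 2 medians of a list. Tg lies to the right for chaperones, amino acid and trafficking genes, and to the left of AA132 for cytosolic heat shock proteins, IRE1 decay substrates, lipid synthesis and oxidative stress genes.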

How the data were processed

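RNA was sequenced on a DNBSEQ instrument, per the labels. The authors deposited 1 table of expected counts per gene, with estimates that need not be whole (3.22% of cells were fractional) and a floor of 0.009 in 43.5% of cells, which was set to 0 here. The build was GRCh38.p7, per the submitters' processing notes. Aligner, counter, annotation and strand setting are not given in the sources used here, so overlapping and antisense genes cannot be told apart. The 38074 rows held 38021 genes after 98 rows sharing 45 names were summed, and 28 rows named by dates (altered gene names) are not named here. Expected counts were rounded, filtered (filterByExpr, minimum count 10, 17793 genes), scaled by TMM and tested with edgeR 4.0.16 (quasi-likelihood, all 11 conditions in 1 fit, R 4.3.3) with Benjamini-Hochberg adjustment. A gene was called at an adjusted p under 0.05. Each SE was derived as the absolute log2 fold change divided by the square root of the F statistic of this test.

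The 6 libraries held 36607985 to 37958306 counts. The common dispersion over all 11 conditions gave what edgeR terms a biological coefficient of variation, 9.09%, though separate cultures are not stated. Counting floors (3 counts per library) cover counting error only. The members of the 21 gene lists (687, of which 681 were tested) and the lists themselves were chosen with earlier results of these data known. Genes named were taken from the lead genes marked in each list, the 3 largest called rises and falls of each list (with members called against a one-sided list), the 10 largest called changes each way at 5 CPM or more without overlap of groups, and the 5 largest each way against AA132 at 30 µM by the same limits. CALR, CANX, CRELD2, ERO1B, SDF2L1 and HARS1 lie outside this rule and were chosen after their values were seen. Some genes that the rule names are not reported here. Gene names follow the table, with current symbols beside older ones. Alternatives were DESeq2 1.42.0, limma 3.58.1 voom, other scaling factors, other filters, a log2 fold minimum of 1, only the conditions compared in the fit, AA132 at 0.1 µM in place of vehicle, each library left out, and the column number as a block. In simulated data for this comparison (17312 to 17334 genes per simulation), 43.5%, 75% and 94.5% of genes changed by 1.3, 1.5 and 2-fold were recovered. Of the genes called there, 7.45%, 1.96% and 6.9% had not been changed. Each simulation changed only 200 genes, all with a vehicle mean of at least 1 CPM, and held no outlying library such as vehicle library 1. Promoters and their letters came from RefSeq (GRCh38.p14), matched to 12947 tested genes.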

Additional observations from a re-analysis of the deposited data

Results flagged for a closer look

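Of the genes named in the report, 3 were called in opposite directions against the same vehicle libraries by Tg and by AA132 at 30 µM, and the difference between the treatments was itself called in the edgeR test that uses no vehicle library. HSPA1A was -3.58 and HSPA1B -3.33 on the log2 scale under Tg relative to AA132, lower than vehicle under Tg and higher under AA132. RETREG2 (listed as FAM134A) was -0.64 on the same scale, also lower under Tg and higher under AA132. Over all genes tested, 82 were called in opposite directions by the 2 treatments and 642 in the same direction.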

How the results depend on the processing

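Of the 140 genes named by rule, no called gene changed direction under an alternative that gave it a value (128 had one when at least 5 CPM was required). The 6 called genes outside the rule were not followed. Among named genes without a call, the sign turned for BLOC1S1 (log2 fold change -0.654 to 0.057 with 1 library left out, positive without Tg library 2), HMGCS1 (-0.006 to 0.183, negative without vehicle library 1) and CCNE2 (-0.227 to 0.073, positive without vehicle library 3). Tg against vehicle gave 5551 calls, 3073 with only its 6 libraries in the fit and 796 with a log2 fold change of at least 1 required. Leaving out 1 library gave 4571 to 5769 calls. Tg against AA132 at 30 µM gave 5305 calls, 641 with the same minimum, and 4363 to 4605 with 1 library left out. AA132 at 30 µM against vehicle gave 1255 calls, 74 with only its 6 libraries, 87 with the minimum, and 700 to 2017 with 1 library left out, the highest without vehicle library 1. The cause of these changes was not tested, except that the minimum removes small changes by construction. Other scaling factors moved the median of all genes from 0.005 to 0.002 (RLE), -0.03 (library totals) or -0.053 (upper quartile). Of 140 named genes, 25 lost their call with only the 6 libraries in the fit, 15 without vehicle library 1 and 12 with AA132 at 0.1 µM in place of vehicle. With the column number as a replicate block, 5572 genes were called. Deviations of same-numbered Tg and vehicle libraries had correlations of 0.011, -0.025 and 0.011, and those of differently numbered libraries ran from -0.036 to 0.032. No effect shared by column number was seen, but such values cannot show how the columns were handled. Genes under about 1 CPM rest on few counts. The AA132 doses of 1, 3 and 10 µM, whose libraries stood apart, were left out of the fit in an alternative chosen after seeing the data, which gave 5549, 5305 and 1314 calls in the 3 comparisons.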

Other observations

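Several gene families outside the lists of the report were looked up after values were seen and are given as counts, with no test of the family. Of 35 tested collagen chains, 17 were lower under Tg than in vehicle and 2 higher, with a median log2 fold change of -0.52, against 15% and 16.2% of all genes tested. The counts were 17 and 0 without vehicle library 1. Laminin chains, which build basement membranes with the collagens, were lower in 8 of 11 and higher in 1 (median -0.48). Tubulins, the subunits of microtubules, were lower in 12 of 18 and higher in 1 (median -0.51), and took 0.592% to 0.596% of counts under Tg against at least 0.942% in each vehicle library. Leaving out vehicle library 1, 11 tubulins were lower and 2 higher. Integrin chains were lower in 6 of 21 and higher in 2, and in 7 and 0 without vehicle library 1. Zinc finger genes with ZNF symbols were higher in 76 of 444, a share near that of all genes tested (17.1% and 16.2%), and lower in 20 (4.5% and 15%), with 58 and 34 without vehicle library 1. Solute carriers were near the shares of all genes tested, with 47 of 243 higher (19.3%) and 41 lower (16.9%). Among long noncoding RNAs, 16.6% of 910 tested were higher and 6.48% lower, where protein-coding genes gave 17.4% and 17.1% of 14280.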
